A study of Mus musculus with 4 samples.

Results

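Potassium channel genes were examined in cultures of mouse embryonic stem cells (ESCs) differentiated towards cardiomyocytes, with and without functional *Taf4a*. The set holds every gene whose symbol starts with Kcn and a subfamily letter, antisense and overlapping transcripts left out. It came to 93 gene identifiers of 24637 in all and 91 symbols, since *Kcnb2* and *Kcnh8* have 2 identifiers each. Polyadenylated RNA was sequenced in 4 libraries, 2 labelled WT (Taf4+/+) and 2 labelled Taf4a-/-. The ESCs came from blastocysts of heterozygous C57Bl6J crosses, and the null allele lacks exons 11 and 12 of *Taf4a*, which encodes a core subunit of the general transcription factor TFIID. The study established 2 lines of each genotype and states that its RNA-seq replicates came from independent lines. The labels do not say which line gave which library. All ESCs had been kept on mouse embryonic fibroblast feeders, then spent 5 days as embryoid bodies in medium with 20% serum and 9 days on gelatin. Each library is a whole dish of mixed cells, so fewer cells of a type and less RNA per cell cannot be told apart. Reads on genes numbered 21732746 to 27733034 per library. Normalized counts of *Taf4a* itself were 889 and 678 in the WT pair and 1722 and 1799 in the Taf4a-/- pair. This count covers the whole gene and does not separate the deleted exons. It was higher in Taf4a-/- by the limma fit described below (log2 fold change 1.18, adjusted p = 0.00569). The genotypes below are therefore those of the libraries as labelled.

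Potassium channels let potassium cross the membrane along its gradient, hold the resting potential and end the action potential. Inward rectifiers (Kcnj) stabilise the resting potential of heart muscle and couple it to acetylcholine and ATP. Tandem-pore-domain channels (Kcnk) carry background leak, voltage-gated channels (Kcna, Kcnb, Kcnc, Kcnd, Kcnh and Kcnq) repolarise the cell, and calcium-activated channels (Kcnma and Kcnn) respond to intracellular calcium. Auxiliary subunits (Kcnab, Kcne, Kcnip and Kcnmb) form no pore and change the gating or trafficking of the pore subunits.

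Potassium channel genes were more often lower than higher in the libraries labelled Taf4a-/-. Values are normalized counts, reads divided by the size factor of the library, and fold changes are Taf4a-/- minus WT on the log2(normalized count + 1) scale, which understates changes of low genes. Errors of fold changes are standard errors (SE) from the same limma fit, as are all adjusted p-values. Of the 93 genes, 65 had a mean of at least 10 normalized counts and were tested by limma together with all other such genes, 16926 in all. The filter used the mean over all 4 libraries, so any gene could pass it through its level in either genotype alone. With calls made at an adjusted p-value (Benjamini-Hochberg) under 0.05, 28 of the 65 (43.1%) were lower, where 17.3% of all genes tested were lower. Among the lower genes, *Kcnj11*, *Kcnj15*, *Kcnk10*, *Kcnk16*, *Kcng2*, *Kcnc1*, *Kcnq1*, *Kcnq3*, *Kcnn4*, *Kcne1* and *Kcne4* had Taf4a-/- means under 10. They passed the filter only through their WT level. There were 2 genes higher (3.08%), *Kcnk5* among them, where 11.3% of all genes tested were higher. The other 35 were not called, so that 30 of the 65 were called in either direction, beside 28.6% of all genes. A log2 fold change of -1 or less was found for 28 of the 65, beside 13.9% of all genes. The median log2 fold change of the 65 genes was -0.90, beside -0.01 for all genes tested. Both WT libraries lay above both Taf4a-/- libraries for 41 of the 65, beside 36.6% of all genes tested, and below them for 7, beside 34.5%. Quantile normalization, which moved the median of all genes to 0.11, gave 22 genes lower and 3 higher, with 14.5% of all genes lower and 15.5% higher.

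The median spread between libraries of 1 genotype was smaller than the median difference between genotypes. Over the 65 genes the WT libraries differed by a median of 0.40 on the log2 scale, the Taf4a-/- libraries by 0.44 and the genotypes by 0.96. Without WT replicate 2 only 5 genes were lower (7.69%) and 0 higher, with 7.22% of all genes lower, so that the share was near that of all genes. Without WT replicate 1 there were 16 lower (24.6%) beside 17.9% of all genes. That count fell while the calls over all genes rose, from 2928 to 3038 lower and from 1906 to 2476 higher. Without either Taf4a-/- library 20 were lower (30.8%), beside 11.7% of all genes without replicate 1 and 11.3% without replicate 2. At an adjusted p-value under 0.01 there were 5 lower (7.69%), beside 6.61% of all genes. The median log2 fold change of the 65 genes stayed between -1.03 and -0.81 with 1 library left out. None of the 30 called genes overlapped between genotypes, so leaving out 1 library could not reverse their direction. Most of the 30 lost their call when some library was left out, while *Kcnk3*, *Kcnd3*, *Kcnj5*, *Kcng2* and *Kcnq3* kept it each time. The share of all called genes that kept theirs is not given here, so this is not read as particular to potassium channel genes.

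**Figure D1:**
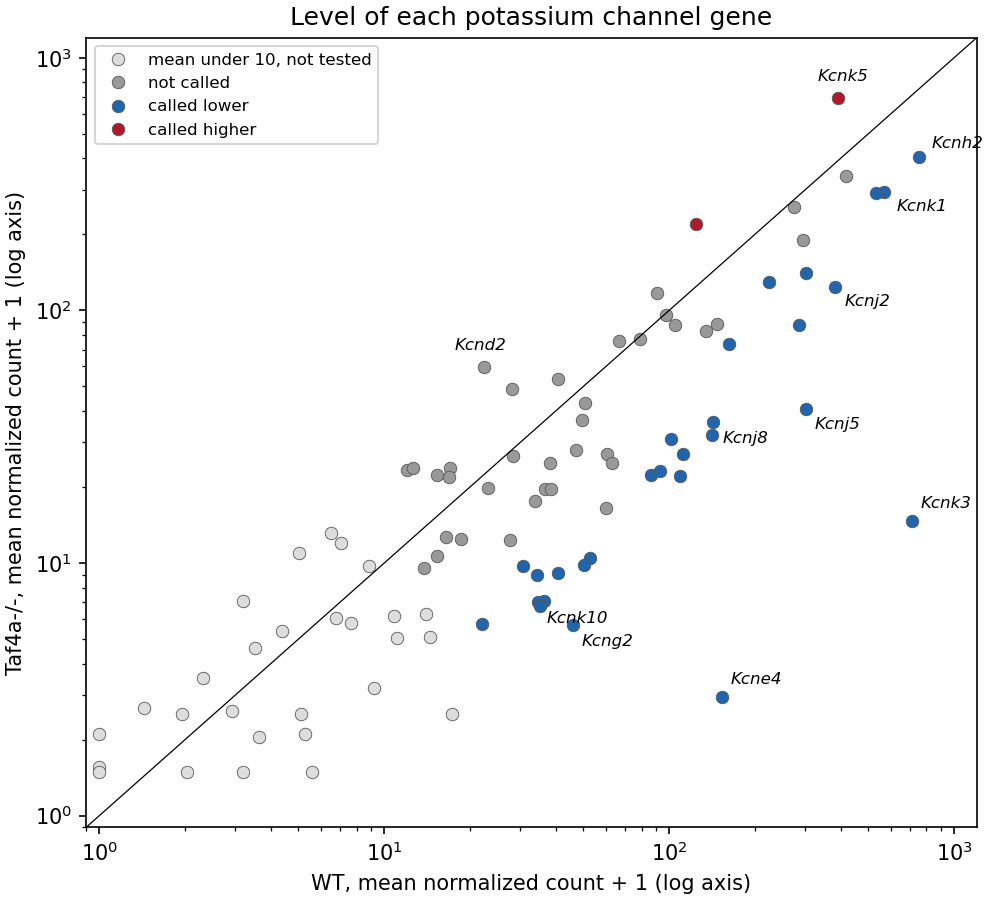
Mean normalized count plus 1 of each of the 93 potassium channel genes in WT (x axis) and in the libraries labelled Taf4a-/- (y axis), both log axes, means of 2 libraries each, with the line of equal levels. The 28 genes called lower (blue) lie below the line, *Kcnk3* and *Kcne4* farthest from it, and of the 2 called higher (red) *Kcnk5* is labelled.

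Markers of several cell types moved together with these genes. All 10 cardiomyocyte markers were lower, some of them shown by the study as its own examples, and their summed level was 27550.3 to 29623 normalized counts in WT and 2753 to 3073 in Taf4a-/-, with none at 0. All 8 macrophage markers were lower (sums 7818 to 9051 and 189 to 210.1, *C1qa* at 0 in both Taf4a-/- libraries), as were all 8 of hepatic and visceral endoderm (sums 64575 to 69728 and 847 to 1419, *Alb* at 0). Of 8 fibroblast markers 7 were lower (429319 to 596621 and 48130.3 to 60341), and of 8 smooth muscle markers 5 (31283 to 55512 and 20122 to 20959.6). Endothelial markers were not called in 7 of 7 cases (7548 to 11530.5 and 5956 to 10061), and of 6 neuronal markers tested *Snap25* alone was lower (860.3 to 1059 and 967 to 1177). Of 8 stem cell markers 7 were higher (1664 to 4794 and 14739.5 to 17182.5). The part of these cell types in the potassium channel values was not tested.

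Of the inward rectifiers 5 of 8 genes tested were lower and 0 higher, beside 17.3% and 11.3% of all genes tested. Their median log2 fold change was -1.91, or -0.94 over all Kcnj genes when no filter on low values was used. *Kcnj5*, a subunit of the acetylcholine-activated channel of atrial cells, stood at 229.7 and 372 normalized counts in the WT pair (replicates 1 and 2, as throughout) and at 33.3 and 46.5 in the Taf4a-/- pair. The WT mean was 7.55 times that of Taf4a-/-, and the log2 fold change was -2.86 (SE 0.34, adjusted p = 0.00379). *Kcnj3*, the partner subunit in that channel, had 11.4 and 15.6 in WT and 4.89 and 3.32 in Taf4a-/-, with no overlap, and was below the level tested. *Kcnj2*, the main pore of the strong inward rectifier current of ventricular muscle, had 414 and 346 in WT and 98.9 and 147 in Taf4a-/-. Both WT libraries were well above, with a log2 fold change of -1.64 (SE 0.26, adjusted p = 0.00864). The study showed *Kcnj2* and *Kcnd3* as selected markers from these libraries, so neither is independent evidence of a direction. The *Kcnj12* gene, for another pore of this current, had 31.6 and 43.6 in WT and 20.6 and 16.6 in Taf4a-/-. The groups did not overlap, and the log2 fold change of -0.97 did not pass the threshold (SE 0.40, adjusted p = 0.117). *Kcnj4*, for a further such pore, overlapped between genotypes at 31.6 and 65.5 against 38.2 and 33.2.

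Both pore genes of ATP-sensitive channels, which open as ATP falls, were lower. *Kcnj8*, the vascular pore, had 159 and 122 normalized counts in WT and 21.5 and 40.9 in Taf4a-/- (log2 fold change -2.19 ± 0.39 SE, adjusted p = 0.0129). *Kcnj11*, the pore of ventricle and pancreatic islet, had 40.3 and 30.1 in WT and 8.81 and 3.32 in Taf4a-/- (log2 fold change -2.46 ± 0.56 SE, adjusted p = 0.0245). Of the sulfonylurea receptors that complete these channels, only the heart and smooth muscle form passed the threshold. *Abcc9*, that form, had 473 and 387 in WT and 97.9 and 146 in Taf4a-/- (log2 fold change -1.83 ± 0.26 SE, adjusted p = 0.00636), and kept its call under every alternative run. *Abcc8*, the islet form, had 30.7 and 24.9 in WT and 40.1 and 25.4 in Taf4a-/-, overlapping between genotypes (log2 fold change 0.20 ± 0.41 SE, adjusted p = 0.734). The difference between the receptors was not tested.

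*Kcnj15*, an epithelial inward rectifier, had 31.6 and 47.8 normalized counts in WT and 2.94 and 13.3 in Taf4a-/- (log2 fold change -2.41 ± 0.69 SE, adjusted p = 0.0467). Its call was also lost with a pseudocount of 0.5, without a filter, under quantile normalization and without the variance trend (adjusted p = 0.0907). *Kcnj10*, a glial and kidney channel, overlapped between genotypes at 18.4 and 12.5 against 15.7 and 7.74. Of the 6 inward rectifier genes below the level tested, *Kcnj3*, *Kcnj14* and *Kcnj16* had both WT libraries above both Taf4a-/- libraries. *Kcnj16* had 7 and 2 reads in WT and 2 and 1 in Taf4a-/-, so its order rested on the size factors. The share of all genes below that level with this order is not given here, so it is not read as particular to inward rectifiers. The calls of *Kcnj2*, *Kcnj8*, *Kcnj11* and *Kcnj15* were lost without WT replicate 2, at log2 fold changes of -1.77, -2.38, -2.67 and -2.12. Without WT replicate 1 those of *Kcnj8* (-1.996), *Kcnj11* (-2.26) and *Kcnj15* (-2.70) were lost, without Taf4a-/- replicate 1 that of *Kcnj15* (-1.48), and without Taf4a-/- replicate 2 that of *Kcnj11* (-1.87).

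TFIID, to which Taf4 belongs, binds core promoters, and the promoter letters of these genes were therefore read from RefSeq windows (build GRCm38.p6) that run from 250 bases before to 50 after a start. A window was found for 66 of the 91 symbols. TATAAA on either strand was present in 5 of the 66 (7.58%), beside 15.7% of all 27025 genes with a window. GGGCGG, the GC box, on either strand was present in 41 (62.1%), beside 38.2% of all. Of the 19 lower genes with a window 1 held TATAAA (*Kcnj15*) and 12 held GGGCGG (63.2%), close to the 28 of 46 (60.9%) among genes not called or not tested. A match is a run of letters and no evidence of binding. The windows below set 2 inward rectifier genes that were lower beside *Kcnk5*, which was higher. The *Kcnj5* window (chr9:32344295-32344594, minus strand) holds GGGCGG at 2 places, the *Kcnj8* window (chr6:142571565-142571864, minus strand) holds neither motif, and the *Kcnk5* window (chr14:20181733-20182032, minus strand) holds GGGCGG at 3 places. Capitals mark that motif, and each window is written 5′ to 3′ along its gene.
Kcnj5: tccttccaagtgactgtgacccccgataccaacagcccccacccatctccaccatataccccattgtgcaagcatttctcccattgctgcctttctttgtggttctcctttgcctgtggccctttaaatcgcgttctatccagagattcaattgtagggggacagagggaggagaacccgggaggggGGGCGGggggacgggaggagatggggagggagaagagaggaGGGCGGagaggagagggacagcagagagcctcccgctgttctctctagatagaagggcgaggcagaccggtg
Kcnj8: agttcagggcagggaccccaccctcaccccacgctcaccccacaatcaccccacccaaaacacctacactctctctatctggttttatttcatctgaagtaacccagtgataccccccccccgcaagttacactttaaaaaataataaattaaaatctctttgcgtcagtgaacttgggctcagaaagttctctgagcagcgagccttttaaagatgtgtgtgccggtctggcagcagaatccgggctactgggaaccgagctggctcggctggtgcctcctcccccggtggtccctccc
Kcnk5: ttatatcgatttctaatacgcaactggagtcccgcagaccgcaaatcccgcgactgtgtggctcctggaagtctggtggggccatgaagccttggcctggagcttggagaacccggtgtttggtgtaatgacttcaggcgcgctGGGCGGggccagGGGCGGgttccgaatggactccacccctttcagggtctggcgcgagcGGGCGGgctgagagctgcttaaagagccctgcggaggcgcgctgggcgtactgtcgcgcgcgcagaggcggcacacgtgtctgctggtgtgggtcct

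Among the tandem-pore-domain genes 6 of 8 tested fell and 1 rose, beside 17.3% and 11.3% of all genes tested. Their median log2 fold change was -1.04. *Kcnk3* (ENSMUSG00000049265, chr5:30890543-30927643 of NCBIM37, plus strand) encodes an acid-sensitive leak channel of heart, smooth muscle and adrenal gland. It had 711 and 714 normalized counts in WT and 10.8 and 16.6 in Taf4a-/-. The WT mean was 52.1 times that of Taf4a-/-, and the log2 fold change of -5.63 (SE 0.30, adjusted p = 0.000624) was, with that of *Kcne4*, among the 2 lowest of the 65 genes. With a pseudocount of 0.5 in place of 1 *Kcne4* was the lower, at -6.10 against -5.68. The value of *Kcnk3* stayed between -5.92 and -5.34 when any 1 library was left out. *Kcnk2*, a mechanosensitive leak channel, had 305 and 297 in WT and 136 and 144 in Taf4a-/- (log2 fold change -1.10 ± 0.19 SE, adjusted p = 0.012). *Kcnk1*, a widely expressed weak leak channel, had 542 and 588 in WT and 358 and 229 in Taf4a-/- (log2 fold change -0.98 ± 0.24 SE, adjusted p = 0.0309). *Kcnk6*, its close relative, had 463 and 596 in WT and 283 and 299 in Taf4a-/- (log2 fold change -0.85 ± 0.19 SE, adjusted p = 0.0226). These falls were smaller than that of *Kcnk3*, and the 4 values of each gene separated the genotypes. *Kcnk10*, a mechanosensitive relative of *Kcnk2*, had 28.9 and 38.4 in WT and 9.79 and 2.21 in Taf4a-/- (log2 fold change -2.55 ± 0.68 SE, adjusted p = 0.0372). *Kcnk16*, an alkaline-activated channel known from pancreas, had 51.7 and 52.0 in WT and 7.83 and 11.1 in Taf4a-/- (log2 fold change -2.36 ± 0.40 SE, adjusted p = 0.0109).

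*Kcnk5* (ENSMUSG00000023243, chr14:20959280-21001004 of NCBIM37, minus strand), an alkaline-activated leak channel of kidney and other epithelia, went the other way. It had 409 and 374 normalized counts in WT and 623 and 763 in Taf4a-/-, a mean 1.77 times that of WT and a log2 fold change of 0.82 (SE 0.17, adjusted p = 0.019). Its neighbour *Kcnk16* lies on the same strand with a start coordinate 122698 bases away. Of the 9 pairs of potassium channel genes whose starts lie within 200 kb, this pair alone had both genes called. Pairs with *Kcna2*, *Kcne2*, *Kcnj1*, *Kcnj9* or *Kcnj16*, which were below the level tested, could not have both called. The other pairs with both genes tested were all among *Kcna1*, *Kcna5* and *Kcna6*. *Kcnk13*, a channel known from microglia, overlapped between genotypes at 25.4 and 18.7 against 24.5 and 13.3. Without WT replicate 2 the calls of *Kcnk5* (0.75), *Kcnk1* (-0.92), *Kcnk6* (-0.67), *Kcnk2* (-1.12), *Kcnk16* (-2.35) and *Kcnk10* (-2.35) were lost. Without WT replicate 1 those of *Kcnk1* (-1.04) and *Kcnk10* (-2.74) were lost, and without Taf4a-/- replicate 1 that of *Kcnk6* (-0.81). Without Taf4a-/- replicate 2 those of *Kcnk5* (0.67), *Kcnk1* (-0.65), *Kcnk6* (-0.89) and *Kcnk10* (-1.67) were lost. Without the variance trend of the fit the calls of *Kcnk5*, *Kcnk1*, *Kcnk6* and *Kcnk10* were lost (adjusted p = 0.0536 to 0.0815).

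The Kcnd genes, pores of the transient outward current of early repolarisation, did not move together. *Kcnd3* had 316 and 254 normalized counts in WT and 84.2 and 89.6 in Taf4a-/- (log2 fold change -1.69 ± 0.23 SE, adjusted p = 0.0056). Its gene span overlaps that of *1700095B22Rik* on the other strand. The library kit does not mark strand, so reads from any exon sequence they share could not be told apart. Whether their exons overlap was not examined. *Kcnd2*, the other main pore of this current in mouse heart and a neuronal channel, had 21.9 and 20.8 in WT and 75.4 and 42.0 in Taf4a-/-. Both Taf4a-/- libraries were above WT, and the log2 fold change of 1.36 missed the threshold (SE 0.41, adjusted p = 0.0535, range over the alternatives 0.0298 to 0.326). It passed with a pseudocount of 10 (0.0478), equal library totals (0.0487) and quantile normalization (0.0298). *Kcnd1* overlapped between genotypes at 238 and 310.7 against 216 and 293, and its log2 fold change of -0.11 turned to 0.17 under quantile normalization.

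None of the 5 Kcna genes tested was called, beside 28.6% of all genes tested. *Kcna5*, an atrial delayed rectifier, had 145.5 and 123 normalized counts in WT and 65.6 and 98.4 in Taf4a-/-. The groups did not overlap, and the log2 fold change of -0.73 did not pass the threshold (SE 0.30, adjusted p = 0.12). *Kcna7*, a muscle channel, had 37.7 and 81.0 in WT and 33.3 and 18.8 in Taf4a-/- (log2 fold change -1.11, adjusted p = 0.147). *Kcna4*, a transient outward channel, was below the level tested, with 23 and 12 reads in WT and 2 and 1 in Taf4a-/-. *Kcna1*, *Kcna3* and *Kcna6*, known from neurons and lymphocytes, overlapped between genotypes.

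Of the remaining voltage-gated pores and their silent modulatory subunits (Kcnb, Kcnc, Kcnf, Kcng, Kcns and Kcnv), 6 of 12 tested were lower. Over all genes tested that share was 17.3%. *Kcng2*, a silent subunit that modifies Kcnb channels, had 47.3 and 42.6 normalized counts in WT and 4.89 and 4.42 in Taf4a-/-. Its log2 fold change was -3.02 (SE 0.43, adjusted p = 0.00632), over an annotated exon model of only 705 bases. *Kcng1*, of the same kind, had 102 and 120.5 in WT and 34.3 and 17.7 in Taf4a-/- (log2 fold change -2.12 ± 0.40 SE, adjusted p = 0.0147). *Kcns1* and *Kcns3* are silent partners of Kcnb channels too. *Kcns3* had 99.9 and 100.8 in WT and 30.3 and 29.9 in Taf4a-/- (log2 fold change -1.70 ± 0.30 SE, adjusted p = 0.0112). *Kcns1* had 58.7 and 158 in WT and 32.3 and 9.95 in Taf4a-/- (log2 fold change -2.35 ± 0.69 SE, adjusted p = 0.0484), and the spread within each genotype was wide. Its call was lost under 7 further alternatives, among them a pseudocount of 0.5, no filter, quantile normalization, limma's voom on the recovered reads (adjusted p = 0.0644) and no variance trend (adjusted p = 0.111).

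*Kcnc1*, a fast delayed rectifier of neurons, had 32.4 and 27.0 normalized counts in WT and 10.8 and 6.64 in Taf4a-/- (log2 fold change -1.69 ± 0.46 SE, adjusted p = 0.0404). Its call was lost without any 1 of the 4 libraries, at -2.003 to -1.38, and also without a filter, under quantile normalization and with a replicate block. Without WT replicate 2 the calls of *Kcng1* (-1.9999), *Kcns3* (-1.70) and *Kcns1* (-1.65) were lost. Without WT replicate 1 those of *Kcng1* (-2.24) and *Kcns1* (-3.06) were lost, and without Taf4a-/- replicate 2 that of *Kcns1* (-1.55).

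The Kcnh and Kcnq subfamilies hold the pores of the rapid and slow delayed rectifier currents that end the cardiac action potential in many mammals. *Kcnh2*, the rapid pore and the most abundant Kcnh gene, had 714.5 and 789 normalized counts in WT and 348 and 461 in Taf4a-/-. Its log2 fold change was -0.90 (SE 0.19, adjusted p = 0.0185), and it overlaps *Gm15589* on the other strand. *Kcnh7*, a relative known from neurons, had 117 and 176 in WT and 83.2 and 91.8 in Taf4a-/-, without overlap (log2 fold change -0.71, adjusted p = 0.116). *Kcnh6*, of the same branch, had 9.64 and 12.5 in WT and 20.6 and 24.3 in Taf4a-/-, also without overlap but with Taf4a-/- above (0.96, adjusted p = 0.147). *Kcnq1*, the slow pore, had 26.3 and 40.5 in WT and 4.89 and 11.1 in Taf4a-/- (log2 fold change -1.998 ± 0.54 SE, adjusted p = 0.0396). *Kcnq3*, a subunit of the neuronal M current, had 63.1 and 35.3 in WT and 8.81 and 8.85 in Taf4a-/- (log2 fold change -2.30 ± 0.46 SE, adjusted p = 0.0166). *Kcnq5*, also an M current subunit and the most abundant Kcnq gene, had 387 and 446 in WT and 333 and 345 in Taf4a-/-, and its log2 fold change of -0.29 did not pass the threshold (SE 0.17, adjusted p = 0.236). The call of *Kcnh2* was lost without WT replicate 2 (-0.83) or Taf4a-/- replicate 1 (-0.70), and that of *Kcnq1* without WT replicate 1 (-2.30), WT replicate 2 (-1.70) or Taf4a-/- replicate 1 (-1.48). Both were lost without the variance trend too (adjusted p = 0.0574 and 0.0573), and that of *Kcnq1* also without a filter and under quantile normalization.

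Of the Kcnn genes, calcium-activated pores, 3 of 4 were lower, beside 17.3% of all genes tested. *Kcnn4*, the intermediate-conductance channel of blood and epithelial cells, had 28.9 and 39.5 normalized counts in WT and 4.89 and 6.64 in Taf4a-/- (log2 fold change -2.38 ± 0.46 SE, adjusted p = 0.0158). *Kcnn3*, a channel of neurons, smooth muscle and endothelium, had 160 and 123 in WT and 22.5 and 47.6 in Taf4a-/- (log2 fold change -2.06 ± 0.42 SE, adjusted p = 0.0181). *Kcnn1*, known from neurons, had 237 and 208 in WT and 127 and 130.5 in Taf4a-/- (log2 fold change -0.78 ± 0.21 SE, adjusted p = 0.0407). *Kcnn2*, the atrial form, overlapped between genotypes at 42.1 and 37.4 against 35.2 and 69.7. *Kcnma1*, the large-conductance pore of smooth muscle, had 28.1 and 37.4 in WT and 15.7 and 17.7 in Taf4a-/- without overlap and did not pass the threshold (log2 fold change -0.92, adjusted p = 0.133). The call of *Kcnn1* was lost without any 1 of the 4 libraries (-0.87 to -0.69) and under quantile normalization, equal library totals, a replicate block or voom, that of *Kcnn3* without WT replicate 1 (-1.87) or 2 (-2.25), and that of *Kcnn4* without WT replicate 2 (-2.16).

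All 3 Kcne genes tested, single-pass subunits that tune Kcnq and Kcnh pores, were lower, beside 17.3% of all genes tested. *Kcne4* had 38.6 and 267 normalized counts in WT and 3.92 and 0 in Taf4a-/-, which are 44 and 257 reads against 4 and 0. The WT libraries lay far apart, and the log2 fold change was -5.54 (SE 1.11, adjusted p = 0.0171). That call was lost under voom on the recovered reads (adjusted p = 0.0515) and without the variance trend (adjusted p = 0.0614). *Kcne3* had 121 and 62.3 in WT and 15.7 and 28.8 in Taf4a-/- (log2 fold change -1.98 ± 0.48 SE, adjusted p = 0.029). *Kcne1*, the partner of *Kcnq1* in the slow current, had 25.4 and 16.6 in WT and 3.92 and 5.53 in Taf4a-/- (log2 fold change -1.93 ± 0.52 SE, adjusted p = 0.0381). *Kcne2*, below the level tested, had 11.4 and 14.5 in WT and 3.92 and 6.64 in Taf4a-/-. The call of *Kcne4* was lost without WT replicate 2 (-4.16) and that of *Kcne3* without WT replicate 1 (-1.51), WT replicate 2 (-2.45) or Taf4a-/- replicate 1 (-1.56). That of *Kcne3* was lost without the variance trend too (adjusted p = 0.0631). The call of *Kcne1* was lost without any 1 library (-2.22 to -1.64), without a filter and with a replicate block.

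Of the other auxiliary subunits, from Kcnab, Kcnip and Kcnmb with 3 genes tested in each, 1 was called, beside 28.6% of all genes tested. *Kcnab2*, a cytoplasmic subunit of Kcna channels, had 134 and 189 normalized counts in WT and 69.5 and 75.2 in Taf4a-/- (log2 fold change -1.13 ± 0.28 SE, adjusted p = 0.0309). Its reads cannot be told apart from those of *Nphp4* where the genes overlap, and its call was lost under quantile normalization and without WT replicate 2 (-0.88), Taf4a-/- replicate 1 (-1.07) or Taf4a-/- replicate 2 (-1.18). *Kcnmb1*, the smooth muscle subunit of *Kcnma1* channels, had 69.3 and 48.8 in WT and 24.5 and 6.64 in Taf4a-/-, without overlap, and missed the threshold (log2 fold change -2.09 ± 0.63 SE, adjusted p = 0.0524). None of the 3 Kcnip genes tested, calcium-binding subunits of Kcnd channels, was called, beside the same 28.6% of all genes tested. Among them *Kcnip2*, the ventricular form, overlapped between genotypes at 19.3 and 12.5 against 26.4 and 15.5.

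**Figure D2:**
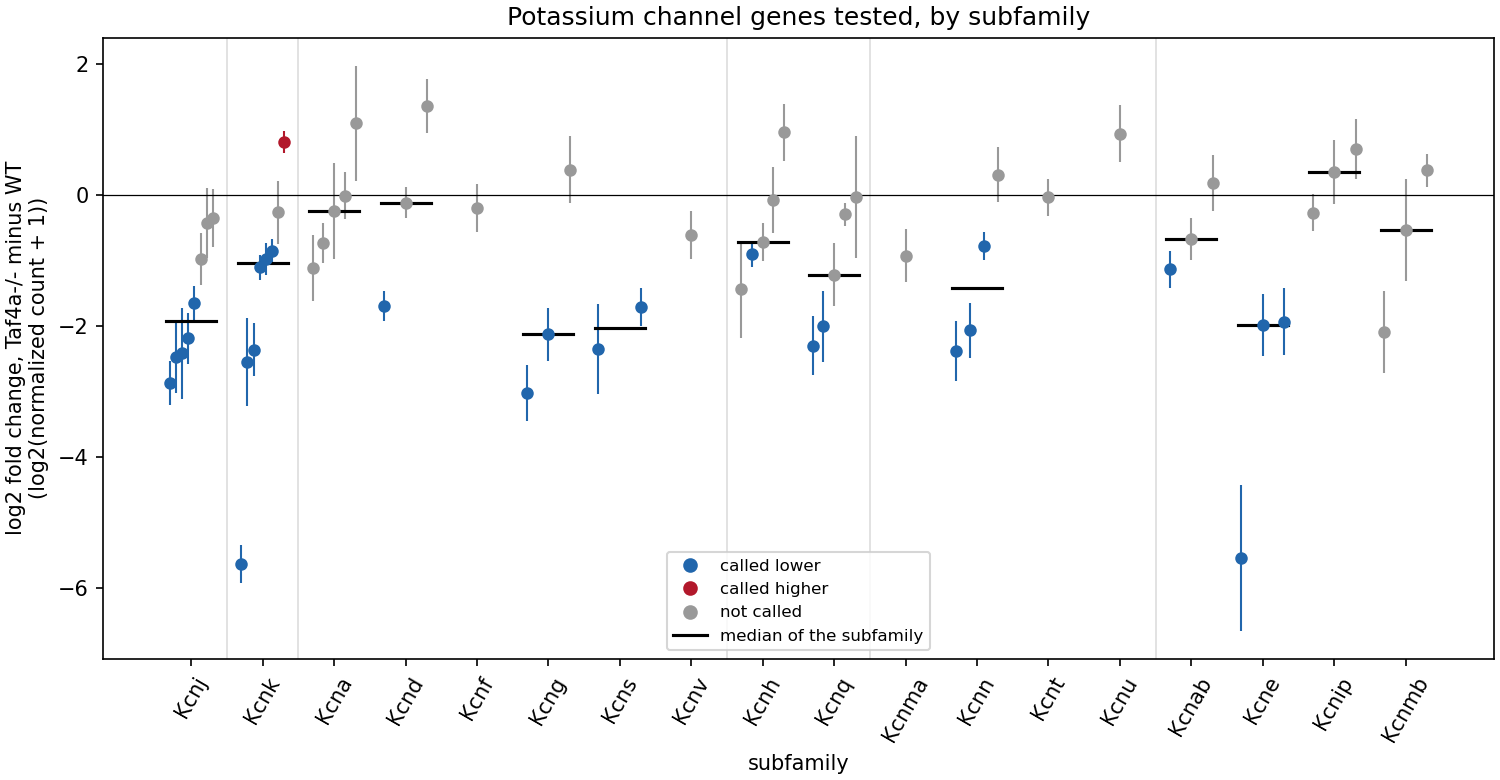
Log2 fold change, Taf4a-/- minus WT on log2(normalized count + 1), of potassium channel genes tested, by subfamily (x axis, Kcnb and Kcnc not drawn). Points are genes, bars are limma standard errors, black lines are subfamily medians, and most blue points (called lower) lie in Kcnj, Kcnk, Kcng, Kcns, Kcnn and Kcne, with a red point (called higher) in Kcnk.

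The 6 pore subfamilies compared here differed in their medians. The median log2 fold change was -1.91 in Kcnj, -1.21 in Kcnq, -1.04 in Kcnk, -0.71 in Kcnh, -0.24 in Kcna and -0.11 in Kcnd, which turned to 0.17 under quantile normalization. The genes lower were 5 of 8 tested in Kcnj, 6 of 8 in Kcnk, 2 of 5 in Kcnq, 1 of 5 in Kcnh, 1 of 3 in Kcnd and 0 of 5 in Kcna. These are counts over few genes, beside 17.3% of all genes tested, and the differences between subfamilies were not tested. The order of the medians depended on the filter on low values. Without a filter they were -1.21 in Kcnq, -0.98 in Kcnk, -0.94 in Kcnj and -0.21 in Kcnh, and with a filter at a mean of 50 they were -2.19 in Kcnj, -0.98 in Kcnk, -0.90 in Kcnd, -0.81 in Kcnh, -0.37 in Kcna and -0.29 in Kcnq. Leaving out WT replicate 1 moved the Kcna median to 0.37, and leaving out WT replicate 2 or Taf4a-/- replicate 1 moved the Kcnd median to 0.08 or 0.11. Leaving out WT replicate 2 moved the Kcnh median to -0.42, Taf4a-/- replicate 1 moved it to -0.44, and leaving out WT replicate 1 moved the Kcnq median to -1.83, below that of Kcnj (-1.75).

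Summed levels, in normalized counts per kb of exon over all genes of a subfamily, were compared as well. Kcnk summed to 831 and 862 in WT and 473 and 466 in Taf4a-/-. Kcnj summed to 255 and 277 in WT and 72.5 and 86.0 in Taf4a-/-, a WT mean 3.36 times the other, beside 1.8 for Kcnk. Kcnk without *Kcnk3* gave 1.41, so that 1 gene carried much of the difference. Kcnh summed to 173 and 196 against 98.8 and 123 (1.66 times), and Kcnq to 93.4 and 106 against 54.7 and 58.1 (1.77 times). Kcna, at 96.9 and 78.7 against 55.8 and 65.7, and Kcnd, at 82.1 and 89.2 against 64.3 and 72.9, differed by 1.45 and 1.25 times. In none of the 6 did the summed levels overlap between genotypes. The sums over all genes of the series did not overlap either, with a WT mean 1.07 times the other. With 2 libraries against 2 no exact permutation test of a sum can go below p = 0.333, and none was run.

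**Figure D3:**
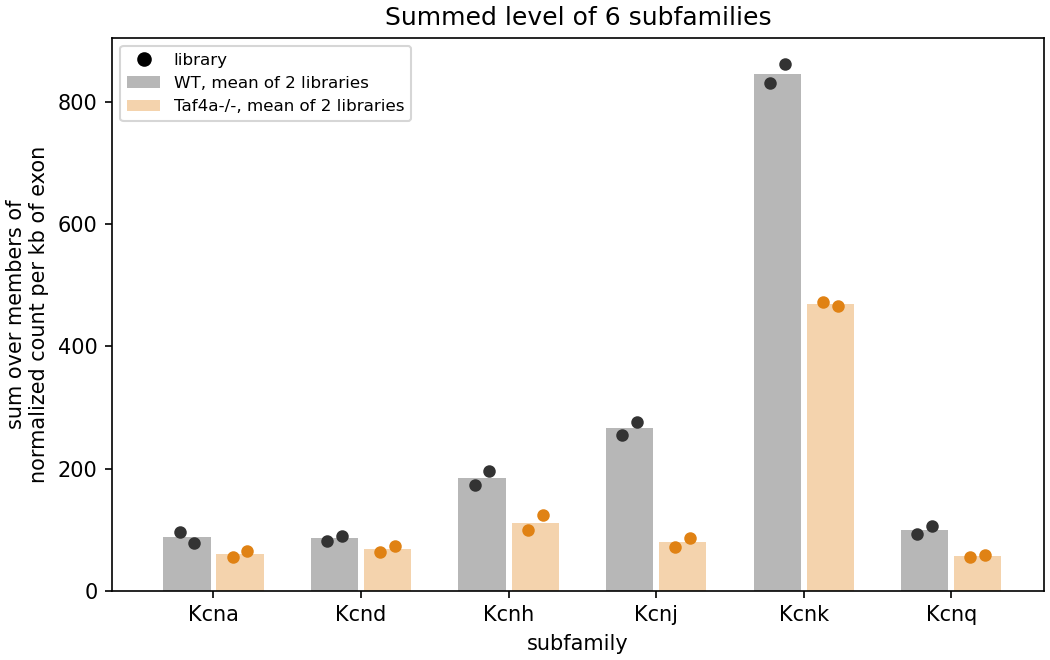
Summed normalized counts per kb of exon (y axis, from 0) of 6 potassium channel subfamilies (x axis) in WT and Taf4a-/-. Bars are means of 2 libraries and points are the libraries; Kcnk is highest in both genotypes, and Kcnj shows the largest ratio, 3.36.

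Per kb of exon, *Kcnk1* was the highest potassium channel gene in WT at 245.5 normalized counts per kb (10.6% of the sum over the 93 genes), followed by *Kcnk3* (187), *Kcnh2* (155), *Kcnk6* (128) and *Kcnk5* (116). In Taf4a-/- the order was *Kcnk5* (206, 16.7% of the sum), *Kcnk1* (128), *Kcnh2* (83.6), *Kcnk6* (70.1) and *Kcnd1* (48.2). Levels per kb of neighbours such as *Kcnk6* and *Kcnk5* in WT, at 111.5 and 144 against 122 and 111, overlapped between libraries. *Kcnk3* moved from rank 2 to rank 53 of the 93 genes and *Kcnj5* from 9 to 31. The rank of *Kcne4* in WT, 12, rested on replicate 2, with 15.5 and 107.5 per kb in the WT pair and ranks of 31 and 6. *Kcnk5* and *Kcnk1* had ranks 5 and 1 in WT and 1 and 2 in Taf4a-/-. The sum over all 93 genes per kb was 2233 and 2400 in WT and 1193 and 1281 in Taf4a-/-. It was 1.87 times as high in WT and 1.73 times without *Kcnk3*, beside 1.07 times for the sum over all genes of the series.

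In a list of 19 genes that carry or tune cardiac potassium currents, 16 were tested. Of these 10 fell (62.5%, beside 17.3% of all genes) and 0 rose (beside 11.3%), and the median log2 fold change was -1.67. All 19 belong to the 93 genes, so these 10 are part of the 28 lower already counted, 43.1% of the 65 tested. Among the 10 were *Kcnj2*, *Kcnj5*, *Kcnj8*, *Kcnj11*, *Kcnd3*, *Kcnq1*, *Kcne1*, *Kcnh2* and *Kcnk3*, of which the study had shown *Kcnj2* and *Kcnd3*. The 6 not called were *Kcnj12*, *Kcnj4*, *Kcnd2*, *Kcnip2*, *Kcna5* and *Kcnn2*. With 1 library left out the count was 3 without WT replicate 2, 6 without WT replicate 1, and 7 and 8 without Taf4a-/- replicates 1 and 2. The shares of all genes lower in those fits were 7.22%, 17.9%, 11.7% and 11.3%. The lower genes span the inward rectifier, ATP-sensitive, delayed rectifier and leak currents, and several of them are known from smooth muscle or neurons too.

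**Figure D4:**
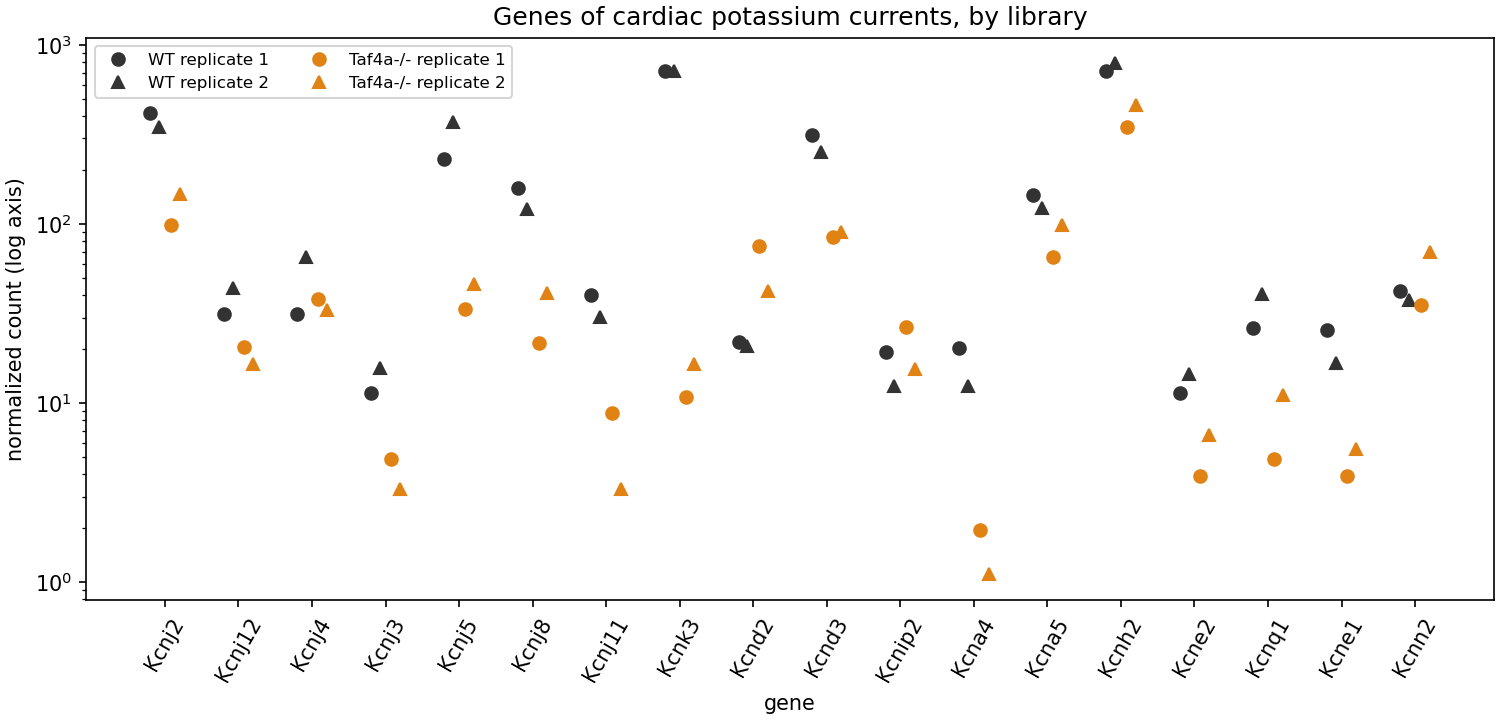
Normalized counts (y axis, log) of genes of cardiac potassium currents (x axis) in each of the 4 libraries, WT in black and Taf4a-/- in orange, circles for replicate 1 and triangles for replicate 2. In the genes called lower both orange points lie below both black points, and in *Kcnd2* both lie above.

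Genes that work with potassium channels but lie outside the Kcn names were read beside them. Of 22 partners, 19 were tested, 6 fell (31.6%, beside 17.3% of all genes) and 0 rose (beside 11.3%), and the median was -0.28. Beside *Abcc9*, *Dlg4*, a scaffold that clusters channels at membranes, had 1350.1 and 1906 normalized counts in WT and 565 and 701 in Taf4a-/- (log2 fold change -1.35 ± 0.21 SE, adjusted p = 0.00774). *Dpp6*, an accessory subunit of Kcnd channels, had 202 and 169 in WT and 51.9 and 74.1 in Taf4a-/- (log2 fold change -1.56 ± 0.29 SE, adjusted p = 0.0137). *Lrrc38*, a subunit of *Kcnma1* channels, and *Akap6*, a kinase anchor of muscle, had log2 fold changes of -1.65 and -1.50 (adjusted p = 0.0194 and 0.0309). Without WT replicate 2 only 2 of the 6, *Abcc9* and *Dlg4*, were lower, beside 7.22% of all genes, without WT replicate 1 there were 3, and without Taf4a-/- replicate 1 also 3. *Cav3*, a muscle caveolin below the level tested, had 13.2 and 10.4 in WT and 0 in both Taf4a-/- libraries.

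Of 20 pumps and cotransporters of potassium found, 18 were tested, 5 fell (27.8%, beside 17.3% of all genes) and 1 rose (5.56%, beside 11.3%), and the median was -0.07, beside -0.01 for all genes. *Fxyd1*, a pump regulator of heart and muscle, had 146 and 144 normalized counts in WT and 5.87 and 8.85 in Taf4a-/- (log2 fold change -4.15 ± 0.37 SE, adjusted p = 0.00189). It kept its call under every alternative run. *Atp1b1*, the main pump beta subunit, and the regulators *Fxyd5* and *Fxyd7* were lower at -1.19, -1.83 and -2.58 (adjusted p = 0.0234, 0.0368 and 0.0423). Without WT replicate 2 or Taf4a-/- replicate 1 the count of lower genes was 3. *Slc12a8*, a member of the cation-chloride cotransporter family, was higher at 25.4 and 29.1 against 62.7 and 61.9 (log2 fold change 1.17 ± 0.33 SE, adjusted p = 0.0432), and it was not called when any 1 library was left out.

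Depth limited what could be seen at low levels. The 28 genes below the level tested reached a mean of at most 9.12 normalized counts, and 7 of them had 3 reads or fewer in every library. Of the 28, 6 had both WT libraries above both Taf4a-/- libraries, namely *Kcna4*, *Kcne2*, *Kcnj3*, *Kcnj14*, *Kcnj16* and *Kcnk4*, 3 had the reverse order and 19 overlapped. Some of these orders rested on very few reads. *Kcnk4* had 5 and 4 reads in WT and 0 and 2 in Taf4a-/-, and *Kcnj16* had 2 in both WT replicate 2 and Taf4a-/- replicate 1. The share of all genes below the filter with either order is not given here, so these counts are not read as a lean of potassium channel genes. Among tested genes with a mean of 10 to 100 normalized counts 18 of 47 were called, all lower. At 100 or more 12 of 18 were called, of which 10 were lower. The shares of all genes at these levels are not given here, so neither set of counts is read as particular to potassium channel genes. A gene such as *Kcnc2*, known from neurons, at 10.5 and 5.19 against 9.79 and 7.74, showed no difference detectable at this depth.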

How the data were processed

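Poly-A RNA of 4 libraries was sequenced with an unstranded kit. The submitters' processing notes name CASAVA 1.8, TopHat 1.3.3, HTSeq 0.5.3p1, DESeq and build mm9. The deposited values are normalized counts that the authors made by dividing the count of each gene by 1 size factor per library, and 100% of them were whole multiples of 1 read within 0.05. Coordinates and exon lengths were taken from NCBIM37 with GENCODE M1, and promoter windows from RefSeq.

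From these values log2(normalized count + 1) was fitted by limma 3.58.1 (lmFit, eBayes with a variance trend, R 4.3.3), WT against Taf4a-/-, without covariates, and genes averaging under 10 were left out. The Benjamini-Hochberg adjustment ran over all 16926 genes tested, and calls were made under 0.05. Depth was 21732746 to 27733034 reads on genes. The p-values rest on the spread between 2 libraries per genotype (2 residual degrees of freedom). That spread was moderated towards the variance trend over all genes tested (4.17 prior degrees of freedom). The script was tested on simulated data.

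The members, lists and tests were chosen with earlier results of these data known. Genes named by rule were the cardiac current list, the 15 largest falls and rises among called genes without overlap, the highest gene per kb of each subfamily compared and the called partners and transporters. Other members were named after their values were seen, and the GGGCGG motif was chosen after TATAAA. Alternatives were other pseudocounts, filters, normalizations and thresholds, no variance trend, a replicate block, each library left out, and voom on the recovered reads, which was added after seeing the data. Protein sequences, *Slc12a1* and *Map2* were not analysed here, and a few genes that the rule names are not reported here.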

Additional observations from a re-analysis of the deposited data

How the results depend on the processing

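The counts called lower were 28 potassium channel genes, 10 cardiac current genes, 6 partners and 5 other transport genes, with 2 potassium channel genes higher. With 1 library left out these ranged from 5 to 20, 3 to 8, 2 to 5 and 3 to 4, with 0 to 2 higher. At an adjusted p-value under 0.01 they were 5, 4, 2 and 2, with 0 higher, and over all genes 1119 lower and 331 higher in place of 2928 and 1906. A filter at a mean of 50 left 30 genes tested and 17 lower. Without the variance trend 19 potassium channel genes and 2 transport genes were lower, and 1741 and 856 of all genes were lower and higher. Leaving out WT replicate 2, Taf4a-/- replicate 1 or Taf4a-/- replicate 2 gave 1222, 1988 and 1921 of all genes lower and 745, 625 and 624 higher, while leaving out WT replicate 1 gave more, 3038 lower and 2476 higher.

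Subfamily medians moved with a pseudocount of 10 to -1.50 in Kcnj and -0.99 in Kcnq, and without a filter to -0.94 in Kcnj and -0.21 in Kcnh. With a filter at 50 they were -2.19 in Kcnj, -0.90 in Kcnd and -0.29 in Kcnq, over fewer genes. Quantile normalization gave -1.62 in Kcnj, -0.79 in Kcnk, -0.88 in Kcnq and -0.37 in Kcnh. With 1 library left out the medians ranged from -1.94 to -1.42 in Kcnj, -1.18 to -1.02 in Kcnk, -1.83 to -1.19 in Kcnq, -0.97 to -0.42 in Kcnh, -0.57 to 0.37 in Kcna and -0.33 to 0.11 in Kcnd.

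The direction reversed for *Kcnd1* under quantile normalization (0.17), without WT replicate 2 (0.084) and without Taf4a-/- replicate 1 (0.11). It reversed for *Kcnj4* under quantile normalization (0.0040) and without WT replicate 2 (0.17), for *Kcnip2* without Taf4a-/- replicate 1 (-0.0041) and for *Kcnn2* without Taf4a-/- replicate 2 (-0.17). With 1 library left out *Kcnj4* reached -0.86 at the lowest, *Kcnip2* 0.73 and *Kcnn2* 0.80 at the highest. None of these genes was called. Over the named genes and all alternatives 451 values kept their direction and side of the threshold, 123 lost and 3 gained a call, and 7 reversed, and the causes were not tested beyond the smaller number of genes or libraries that an alternative leaves.

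Deviations of same-numbered libraries correlated at 0.012 over all genes tested. With 2 libraries per genotype this is a single value, and it cannot show whether the replicate number marks a shared batch or line. With the number as a block 25 potassium channel genes were lower and 1 higher, and *Kcne1*, *Kcns1*, *Kcnn1*, *Kcnc1* and *Slc12a8* were among the genes that lost their calls. Voom on the recovered reads, chosen after seeing the data, gave 25 lower and 2 higher. The planned edgeR and DESeq2 fits were not run.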
